A study of Mus musculus with 12 samples.

Results

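Of the H3K36me2 peaks listed for mouse somatosensory cortex, 574 of 3722 lay in open intergenic ground, 50 to 300 kb from genes. A peak was included when its midpoint fell in no annotated gene body of any biotype and lay more than 50 kb and at most 300 kb from the nearest start or end of a protein-coding gene. Positions were read against the RefSeq annotation of GRCm38.p6, whose chromosome coordinates mm10 shares. The control list held 29 such peaks of 231 (12.6%, Wilson 95% interval 8.88 to 17.4). The list of the conditional knockout (cKO) held 545 of 3491 (15.6%, 14.4 to 16.9). This distance class took up 19.4% of the annotated territory, 517 of 2661 Mb.

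The lists came from 12 chromatin libraries of somatosensory cortex taken at 2.5 months of age, 6 per genotype, with 3 immunoprecipitated with an H3K36me2 antibody and 3 inputs in each. The cKO animals carried Nsd1Nex-cKO, a deletion by Nex-driven Cre, which is active in excitatory forebrain neurons after their last division, so other cell types of the cortex keep the gene. Controls were labelled Nsd1fl/+ in 2 libraries and Nsd1fl/fl in 1 library of each group of 3. Fixed nuclei were digested with micrococcal nuclease before sonication. The labels point all 6 libraries of a genotype to 1 list, so no value below has a replicate error and no test between genotypes was possible. Depth was unknown. Intervals cover counting error alone and treat peaks as independent. A change in the mark and a change in the share of cells that carry it cannot be told apart in whole tissue. The lists hold no expression values, so the tissue label was not checked.

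H3K36me2 is dimethylation of a lysine in the tail of histone H3. It is laid down by methyltransferases of the NSD family, which includes NSD1, and by ASH1L. In mammalian cells it spreads over broad domains that take in ground between genes, where it helps recruit the DNA methyltransferase DNMT3A. Distal intergenic ground also holds enhancers, noncoding RNA genes and repeats.

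Peaks of this class touched a RefSeq promoter window (250 bases before to 50 after a gene's start) at 2 genes, both encoding long noncoding RNAs and both in the cKO list. Their sequences are shown because they are the stretches of these peaks that a RefSeq table holds. Both read 5′ to 3′ on the plus strand of GRCm38.p6, with each CG pair, the site of most DNA methylation, in capitals. The first lies at chr16:5483615-5483914 at Gm41416 and the second at chr6:3182866-3183067 at LOC115490388, where the window was cut to the part inside the peak.
Gm41416: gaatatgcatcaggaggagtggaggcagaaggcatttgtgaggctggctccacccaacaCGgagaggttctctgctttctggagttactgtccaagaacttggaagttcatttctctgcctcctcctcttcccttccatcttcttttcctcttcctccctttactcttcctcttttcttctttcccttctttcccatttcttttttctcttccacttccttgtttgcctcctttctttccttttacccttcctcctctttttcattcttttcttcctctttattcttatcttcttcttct
LOC115490388: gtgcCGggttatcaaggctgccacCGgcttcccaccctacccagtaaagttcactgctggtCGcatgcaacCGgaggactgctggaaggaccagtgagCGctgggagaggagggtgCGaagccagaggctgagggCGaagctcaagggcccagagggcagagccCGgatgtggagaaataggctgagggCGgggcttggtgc

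The 2 stretches differed in composition. The Gm41416 window held 1 CG in 300 bases, was 75.7% pyrimidine and had a GC content of 43.7%. The LOC115490388 stretch held 9 CG in 202 bases, with 39.1% pyrimidine and 63.9% GC, and its whole window, before the cut, held 15 CG. Over all 32851 promoter windows the medians were 7 CG, 49.7% pyrimidine and 52.7% GC. The peak at Gm41416 spanned 548 bp at a fold enrichment of 2.67 with a −log10 q of 0.0313, and the peak at LOC115490388 spanned 368 bp with a fold of 2.16 and a −log10 q of 0.0707. Fold enrichment is the authors' ratio of reads at a peak to the local background, and −log10 q is the caller's adjusted p on a log scale, so q under 0.05 lies above 1.30 on it. Both peaks were therefore far from that limit.

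Peaks of this class were sparser than peaks nearer to genes in the cKO list. There they lay at 1.05 per Mb of their territory (exact Poisson 95% interval 0.968 to 1.15), against 1.70 per Mb (1.57 to 1.82) in intergenic ground 5 to 50 kb from genes and 1.76 (1.54 to 2.00) within 5 kb. Beyond 300 kb the density was 0.918 per Mb (0.819 to 1.03), an interval that overlapped that of the 50 to 300 kb class. In the control list the same class held 0.0561 peaks per Mb (0.0376 to 0.0806), against 0.134 (0.101 to 0.173) at 5 to 50 kb and 0.0411 (0.0225 to 0.0689) beyond 300 kb. Thus in each list the interval at 50 to 300 kb lay wholly below that at 5 to 50 kb. Peaks are called grouped here when 3 or more further peaks, from either list, lay within 100 kb of them. Without grouped peaks the control intervals overlapped, at 0.0368 (0.0221 to 0.0574) and 0.0775 (0.0533 to 0.109) per Mb, while those of the cKO stayed apart, at 0.959 (0.877 to 1.05) and 1.56 (1.44 to 1.68). On autosomes alone the cKO densities were 1.14, 1.80 and 0.975 per Mb at 50 to 300 kb, 5 to 50 kb and beyond 300 kb.

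Within the class the cKO density was level to 150 kb and lower beyond. It was 1.16 per Mb at 50 to 75 kb, 1.20 at 75 to 100 kb and 1.19 at 100 to 150 kb. It was 0.885 at 150 to 200 kb and 0.859 at 200 to 300 kb. Joined, the nearer part held 361 peaks at 1.18 per Mb (1.06 to 1.31) and the farther part 184 at 0.870 per Mb (0.749 to 1.01), and the intervals did not overlap. The split at 150 kb was chosen after the bins were seen. Without grouped peaks the values were 1.07 (0.954 to 1.19) and 0.804 (0.688 to 0.934), and on autosomes 1.27 (1.13 to 1.42) and 0.955 (0.815 to 1.11). On autosomes without grouped peaks they were 1.17 (1.04 to 1.32) and 0.897 (0.762 to 1.05), and there the intervals overlapped. The 29 control peaks were too few to show such a step, with 0.0589 per Mb (0.0349 to 0.0931) in the nearer part and 0.0520 (0.0260 to 0.0931) in the farther part. The median fold was 2.81 in the nearer cKO part and 2.84 in the farther one, and q under 0.05 was held by 12.7% and 13.6%.

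**Figure D1:**
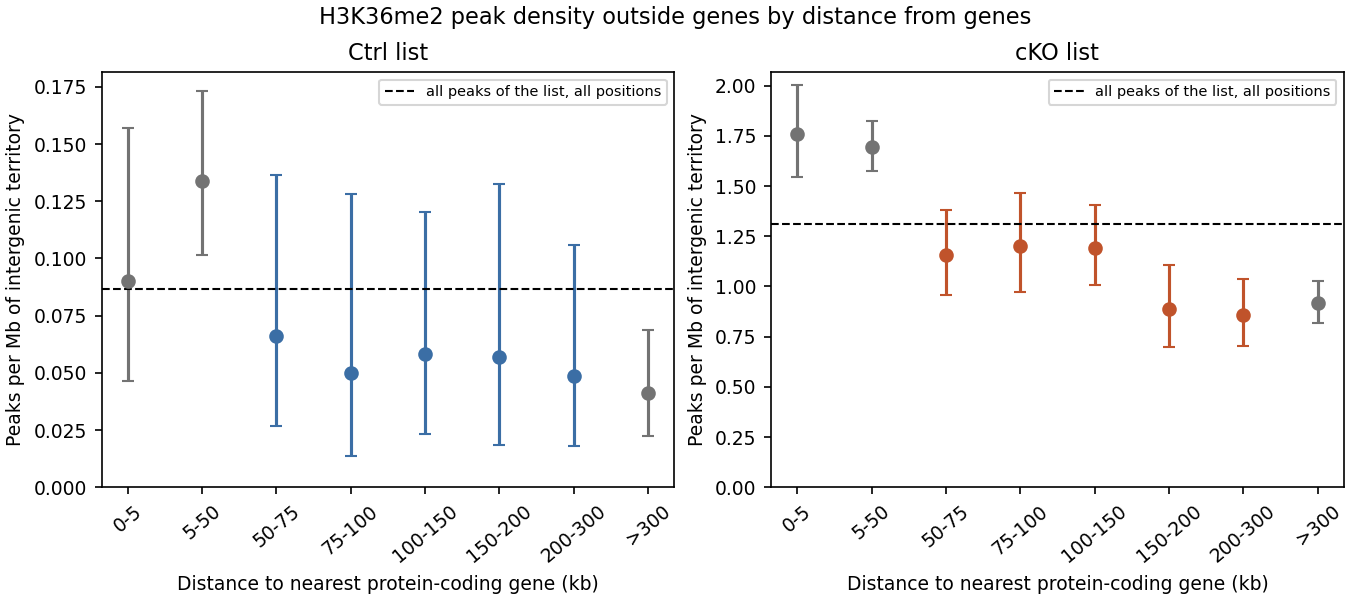
Peaks per Mb of intergenic territory (y axis) by distance to the nearest protein-coding gene in kb (x axis) for the control list (left) and the cKO list (right); bars are exact Poisson 95% intervals, coloured points are the 50 to 300 kb class and the dashed line is the density over all positions. The cKO points run from 1.76 within 5 kb to 0.859 at 200 to 300 kb, and the y axes differ between the panels.

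The cKO list held 18.8 times as many peaks of this class as the control list (95% interval 12.9 to 28.3), covering 157 kb against 7.45 kb. Over all positions the ratio was 15.1 (13.2 to 17.3), and at 5 to 50 kb it was 12.7 (9.66 to 16.9). Within 5 kb the ratio was 19.6 and beyond 300 kb it was 22.4, both higher than at 50 to 300 kb. The upper limits of their intervals were 38.4 and 41.4. The intervals of these ratios overlapped. The length of a list moves with depth and immunoprecipitation efficiency, which were unknown here, and their part in the ratio was not tested.

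Most peaks of the class were weak by the authors' own scores. In the control list 3 of 29 had q under 0.05 (10.3%, 3.58 to 26.4), beside 9.96% of the whole list. In the cKO list 71 of 545 did (13.0%, 10.5 to 16.1), beside 18.4% of the whole list. The cKO share was 18.7% (16.0 to 21.7) at 5 to 50 kb, 29.8% (24.3 to 35.9) within 5 kb and 17.6% (13.8 to 22.2) beyond 300 kb. The interval of the 50 to 300 kb class thus lay below those of the whole list and of the nearest class, and overlapped the other 2. A −log10 q of exactly 0 was listed for 7 of the 29 control and 87 of the 545 cKO peaks of the class. Over the whole lists it was listed for 77 of 231 and 445 of 3491. The median fold was 2.67 in controls (order-statistic 95% interval 2.12 to 3.04), beside 2.18 (2.09 to 2.31) over the control list, and 2.82 in the cKO (2.81 to 2.84), the same as over the cKO list. Median width was 215 bp in controls and 246 bp in the cKO, beside 294 and 250 bp over the whole lists.

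The lowest q-values did not lie on peaks of high fold. The 8 cKO peaks at a −log10 q of 10 or more had folds of only 1.25 to 2.07, and 7 of them were grouped. Grouped peaks made up 8.25% of the whole cKO list and 49.8% of the whole control list. The 139 cKO peaks with a fold of at least 3 had a median −log10 q of 0.627, 27 of them had q under 0.05 and 2 were grouped. In controls all 3 peaks with q under 0.05 were grouped and had folds of 1.17, 1.20 and 1.60. The 19 control peaks that were not grouped had folds of 2.08 to 4.08 and −log10 q of 0 to 1.17, so 0 of them had q under 0.05. Among the 496 cKO peaks that were not grouped, 54 had q under 0.05.

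**Figure D2:**
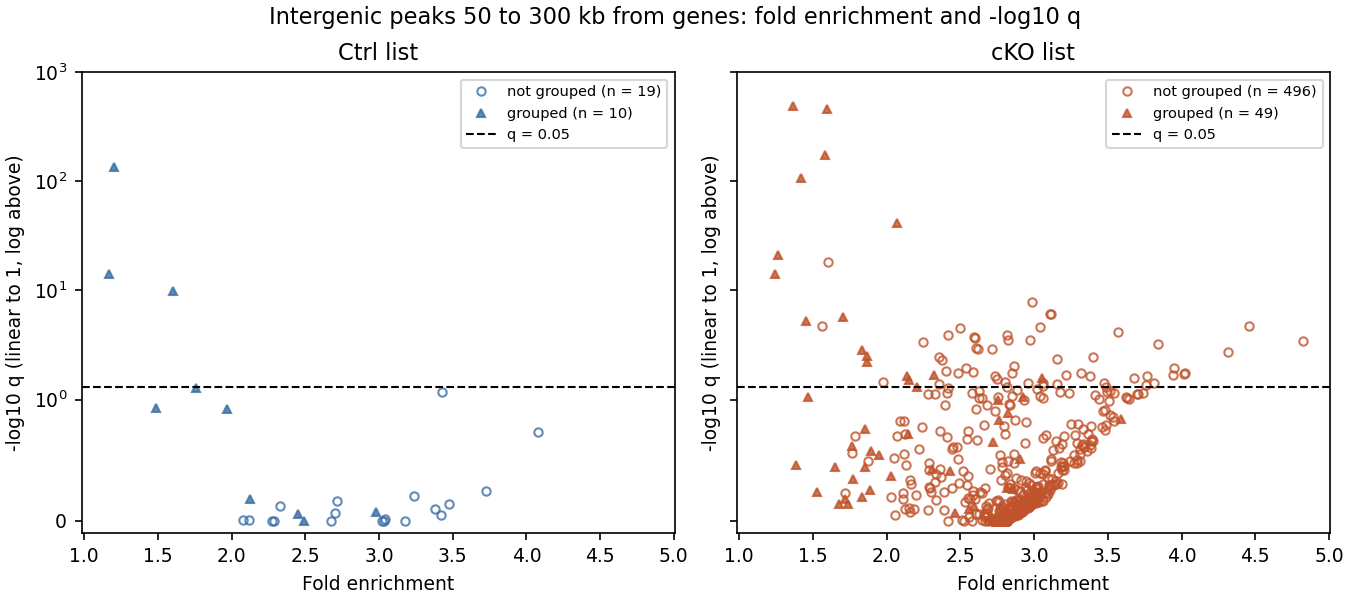
Fold enrichment (x axis) against −log10 q (y axis, linear up to 1 and logarithmic above) for the 29 control peaks (left) and the 545 cKO peaks (right); filled triangles are grouped peaks, open circles are the others, and the dashed line marks q = 0.05. The highest −log10 q values, up to 136 in controls and 488 in the cKO, sit at folds under 2.1.

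The cKO peak of highest fold lay 251 kb downstream of Sh2d4b, which encodes an SH2 domain protein (chr14:40560832-40560995, fold 4.82, −log10 q 3.46). It lay 2.46 kb from the pseudogene Gm5205. The next lay 79.5 kb upstream of Prr32, a proline-rich protein gene (chrX:45011369-45011522, fold 4.46, −log10 q 4.74). After it came a separate peak 103 kb from Gm20933 on the Y chromosome (fold 4.32, −log10 q 2.72). Ythdc2, an RNA helicase gene needed in meiosis, followed with a peak 63.4 kb away (fold 4.03, −log10 q 1.76). The other 6 of the 10 highest folds had Btbd35f27 (4.02), AI593442 (3.95), Btbd35f17 (3.94), the odorant receptor gene Olfr161 (3.84), Gm10377 (3.81) and Iqub (3.76) as nearest genes. All 10 had q under 0.05, all were under 200 bp wide, 0 were grouped and 0 overlapped a control peak. Over the whole cKO list 18.4% had q under 0.05 and only 2.81% overlapped a control peak. Of these 10, 3 lay on the X chromosome and 2 of those 3 beside genes of the Btbd35f family.

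The control peaks of highest fold lay elsewhere and were weaker by q. The highest lay 106 kb upstream of Adpgk, an ADP-dependent glucokinase gene (chr9:59185567-59185713, fold 4.08, −log10 q 0.732), and 5.56 kb from the long noncoding RNA gene Gm33053. Tprg (fold 3.72) and Slc6a15, a neutral amino acid transporter gene (fold 3.48), came next. The peak 52.8 kb upstream of Foxp4, a forkhead transcription factor gene, had a fold of 3.42 and a −log10 q of 1.17, and lay 0.566 kb from the long noncoding RNA gene Gm29938. Zwint, a kinetochore protein gene (3.42), Adcyap1, which encodes the neuropeptide PACAP (3.38), Btbd35f29 (3.24), Atoh1, a proneural transcription factor gene (3.17), C9orf72 (3.04) and Sema3d, a semaphorin gene (3.04), completed the 10. Of these 10 control peaks, 0 had q under 0.05 and 0 overlapped a cKO peak, beside 9.96% and 42.4% of the whole control list.

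The lowest q-values sat in a few tight groups. On chromosome 14, 3 cKO peaks at 19415799 to 19419278, about 115 to 118 kb downstream of Gm2244, had −log10 q of 107, 488 and 457 at folds of 1.42, 1.37 and 1.59. On chromosome 9, 3 cKO peaks 297 to 299 kb upstream of Alkbh8, a tRNA methyltransferase gene, had −log10 q of 21.2, 14.3 and 176 at folds of 1.26, 1.25 and 1.58. The third of these lay 0.617 kb from the microRNA gene Mir101c. A peak 92.9 kb downstream of Kcnh5, a voltage-gated potassium channel gene (chr12:74804173-74804429, fold 1.60, −log10 q 18.2), was the 1 peak above 10 that was not grouped. Below a −log10 q of 10, the best-scored cKO peak lay 157 kb from Gm51483 on chromosome 7 (fold 2.99, −log10 q 7.90). The next lay 97.2 kb upstream of Hand2, a heart and neural crest transcription factor gene (fold 3.11, −log10 q 6.06). Repeats and mappability were not analysed here.

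The widest cKO peak spanned 1574 bp, 126 kb downstream of Tcte2 (chr17:13589925-13591498, fold 1.45, −log10 q 5.28). The Gm2244 peak of highest −log10 q followed at 1257 bp, then a pair beyond Asmt, the gene of the last enzyme of melatonin synthesis, at 1002 and 812 bp. The fifth lay 279 kb from Gria1, an AMPA receptor subunit gene, and spanned 811 bp (fold 2.96, −log10 q 0.191). In controls the widest was 547 bp, beside Gm15319. In controls 3 of 29 peaks of the class were 500 bp or wider (10.3%), beside 20.3% of the whole list. In the cKO 39 of 545 were (7.16%), beside 8.22% of the whole list.

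Both lists shared 10 peaks of the class, by an overlap of at least 1 bp. This was 34.5% of the 29 control peaks (19.9 to 52.7), beside 42.4% of the whole control list. It was 1.83% of the 545 cKO peaks (1.00 to 3.34), beside 2.81% of the whole cKO list. Shared control peaks had folds of 1.17 to 2.45, and the 19 control peaks that were not shared had folds of 2.08 to 4.08. Of the 10 shared peaks, 8 were grouped and 4 lay within 1 Mb of a chromosome's first annotated base. The overlapping peak of the other list counts toward grouping, so sharing and grouping were linked by definition.

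The strongest shared peak by q lay beside Gm2244 on chromosome 14, with a fold of 1.20 in the control list and 1.37 in the cKO list and −log10 q of 136 and 488. Beside Alkbh8 the folds were 1.17 and 1.58 and the −log10 q 14.1 and 176. At the start of chromosome 18, 3 shared peaks lay 113 to 118 kb from Vmn1r238, a vomeronasal receptor gene, with control folds of 1.60, 1.76 and 1.49 and cKO folds of 2.07, 1.84 and 1.39. The peak beside 9530057J20Rik on chromosome 8 had folds of 1.97 and 1.87, and that beside Slc16a14, a monocarboxylate transporter family gene, had 2.12 and 1.95. Adamts3, a procollagen-processing protease gene, had 2.33 and 2.49, and Gm40469 had 2.45 and 2.31.

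The remaining shared peak showed the widest gap. Upstream of Hand2 (chr8:57223645-57223859 in the control list) the fold was 2.12 with a −log10 q of 0.0042 in controls, and 3.11 with 6.06 in the cKO. It was 1 of 2 shared peaks that were not grouped, the other being that beside Adamts3. The fold was higher in the cKO list for 6 of the 10 shared peaks and lower for 4. Each list was scored against its own background, so these pairs are given side by side.

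**Figure D3:**
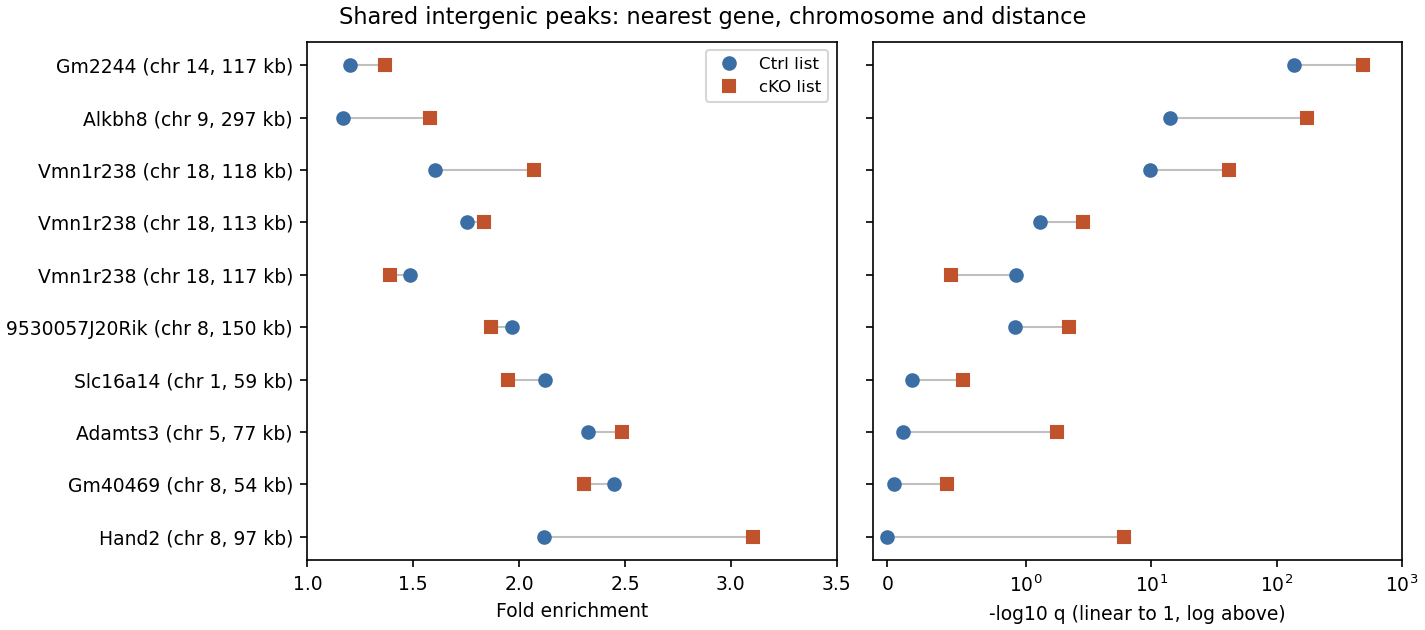
The 10 shared peaks, named by nearest gene, chromosome and distance, with fold enrichment (left) and −log10 q (right, linear up to 1 and logarithmic above) in the control list (circles) and the cKO list (squares). The peak near Hand2 moves from a fold of 2.12 to 3.11, while the others differ by less than 0.5.

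The cKO peaks were spread over 435 intervals free of protein-coding genes, and 367 of these held 1 peak each. The most, 9 peaks, lay beyond Asmt at the distal end of the X chromosome, within chrX:170809606-170857088, with folds of 1.68 to 2.32 and a highest −log10 q of 1.66. Between 9530057J20Rik and Gm15319 on chromosome 8 there were 7 cKO peaks and 2 control peaks. Between Zxdb, a zinc finger gene, and Spin4, a spindlin gene, on the X chromosome there were 6 cKO peaks within chrX:94878955-94916281, with folds of 2.46 to 2.93 and 0 below a q of 0.05. Before Olfr161, at the start of chromosome 16, 5 cKO peaks and 1 control peak were listed. Of the 5 intervals with 4 cKO peaks, that before Vmn1r238 on chromosome 18 held 3 control peaks and that before Alkbh8 on chromosome 9 held 1. Those between Lrig1 and Kbtbd8 and between Sall3 and Galr1 held 0 control peaks.

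Peaks near chromosome ends were mostly grouped ones. Within 1 Mb of a chromosome's first or last annotated base lay 32 of the 545 cKO peaks (5.87%, 4.19 to 8.17) and 5 of the 29 controls (17.2%, 7.60 to 34.5), beside 1.73% of the territory of the class. All 5 control peaks and 21 of the 32 cKO peaks there were grouped, and the median fold of the 32 was 2.13. Among peaks that were not grouped, 0 of 19 controls and 11 of 496 cKO peaks (2.22%, 1.24 to 3.93) lay there, and the cKO interval covered the share of the territory. This distance was chosen after the values were seen.

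The density of the class varied between chromosomes within its counting error, except on the Y chromosome. The cKO density was highest on chromosome 18, at 1.71 per Mb (1.14 to 2.45, 29 peaks), chromosome 13, at 1.58 (1.13 to 2.15, 40 peaks), and chromosome 17, at 1.52 (0.939 to 2.32, 21 peaks). It was lowest among autosomes on chromosome 19, at 0.529 (0.144 to 1.35, 4 peaks), and on chromosome 10, at 0.749 (0.444 to 1.18, 18 peaks). The intervals of all autosomes overlapped one another, these extremes included. The X chromosome held 62 of these peaks at 1.31 per Mb (1.00 to 1.68), and they were 37.8% of all its cKO peaks, on a chromosome of which 28.2% was territory of the class. The Y chromosome held 5, at 0.100 per Mb (0.0325 to 0.233), over 9.67% of the territory of the class, an interval that overlapped that of chromosome 19 alone. The whole cKO list was as sparse there, with 12 peaks at 0.132 per Mb of the Y chromosome, against 1.38 per Mb on autosomes. The low Y density was thus not particular to the class. In the control list 28 of the 29 peaks were autosomal and 1 lay on the X chromosome.

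**Figure D4:**
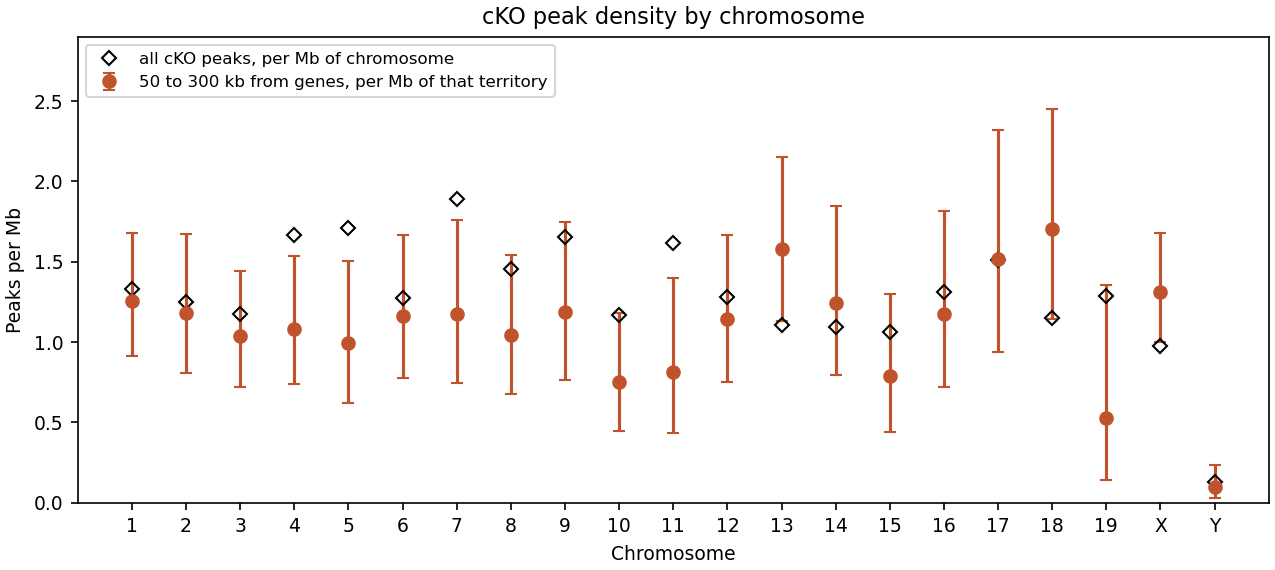
cKO peaks of the 50 to 300 kb class per Mb of that territory (circles, exact Poisson 95% intervals) and all cKO peaks per Mb of chromosome (diamonds) for each chromosome (x axis). The interval of the class lies above the density of the whole chromosome on chromosomes 13 and X, and below it on chromosomes 4, 5, 7 and 11. Of the 62 peaks of the class on X, 15 are grouped.

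Peaks of the class showed little preference for a side or for noncoding genes. Where the strand of the nearest gene was known, 217 of 416 cKO peaks lay upstream (52.2%, 47.4 to 56.9), beside 51.3% of the territory, and 14 of 24 control peaks did (58.3%, 38.8 to 75.5). Within 5 kb of a noncoding gene or pseudogene lay 44 of 545 cKO peaks (8.07%, 6.07 to 10.7) and 3 of 29 controls (10.3%, 3.58 to 26.4), beside 8.91% of the territory. Intervals of 1 Mb or less between protein-coding genes held 450 of the 545 cKO peaks (82.6%, 79.2 to 85.5), beside 75.8% of the territory.

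The genes nearest to these peaks were then set against 17 gene groups, as a description without a test. A nearest gene is a label of position, and no link to that gene's expression was measured. Genes of the 15 groups listed by name (397 genes) were nearest to 45 of 545 cKO peaks (8.26%, 6.23 to 10.9), beside 9.82% of the territory, and to 1 of 29 control peaks. Synaptic adhesion, scaffold and glutamate receptor genes were nearest to 13 cKO peaks (2.39%, 1.40 to 4.04, territory 1.87%). These included 1 upstream of Negr1, a neuronal growth regulator gene (fold 3.21, −log10 q 1.68), 2 downstream of Gria2, an AMPA receptor subunit gene (highest fold 2.99), and that near Gria1. Axon guidance genes had 4 (0.734%, 0.286 to 1.87, territory 1.26%), near Epha5 (fold 3.09), Unc5c (3.06), Epha4 (2.73) and Robo2 (2.70), and the 1 control peak near Sema3d. Cadherin genes had 3 (0.550%, 0.187 to 1.61, territory 1.57%), near Cdh18 (3.06), Pcdh15 (2.92) and Pcdh10 (2.30). Voltage-gated and related channel genes had 4 (0.734%, 0.286 to 1.87, territory 0.720%), near Kcnk2 (2 peaks, highest fold 3.10), Kcnj3 (2.77) and Kcnh5 (1.60).

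Markers of cell identity were nearest to few of these peaks and to little of the territory. Upper-layer neuron, cortical area patterning, oligodendrocyte, immediate early and housekeeping genes were nearest to 0 of 545 cKO peaks, with a Wilson interval up to 0.700% for each, and their territories were 0.386%, 0.392%, 0.0556%, 0.106% and 0.0103%. The interval therefore covers each of these territories. Deep-layer genes had 1 peak, near Syt6, a synaptotagmin gene (fold 2.76). Interneuron genes had 2, near Nkx2-1 (2.80) and Erbb4 (2.12), and astrocyte genes had 3, near Gpc5 (3.40), Sox9 (2.87) and Slc4a4 (2.67). The microglia and vascular group had 1, near the endothelial cadherin gene Cdh5 (3.40). Developmental transcription factor and signal genes had 11 (2.02%, 1.13 to 3.58, territory 2.34%), with Zic4 (3.19), Zfhx4 (3.01), Bmp4 (3.01) and Sall3 (2.99) highest by fold. Hand2 was not among the genes listed for this group, so its peak is not counted here. Genes of H3K36, DNA methylation and Polycomb machinery had 3 (0.550%, 0.187 to 1.61, territory 0.160%): a peak 252 kb downstream of the histone demethylase gene Kdm4c (fold 2.97, −log10 q 3.53), one near the methyltransferase gene Smyd2 (2.81) and one near the methylcytosine dioxygenase gene Tet2 (2.76).

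Olfactory and vomeronasal receptor genes, which lie in large clusters and encode receptors of the nose, were nearest to 15 cKO peaks (2.75%, 1.67 to 4.49) over 0.655% of the territory, and to 4 of the 29 control peaks. Of these 15, 5 lay before Olfr161 and 4 before Vmn1r238, both at chromosome starts, and 6 had q under 0.05. The other highest by fold were Vmn2r121 (3.76), Vmn2r98 (3.39) and Vmn2r96 (3.31). Zinc finger genes of the Zfp series were nearest to 10 cKO peaks (1.83%, 1.00 to 3.34) over 0.916% of the territory, with Zfp536 (3.46), Zfp622 (3.19), Zfp703 (3.15) and Zfp64 (3.04) highest by fold.

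**Figure D5:**
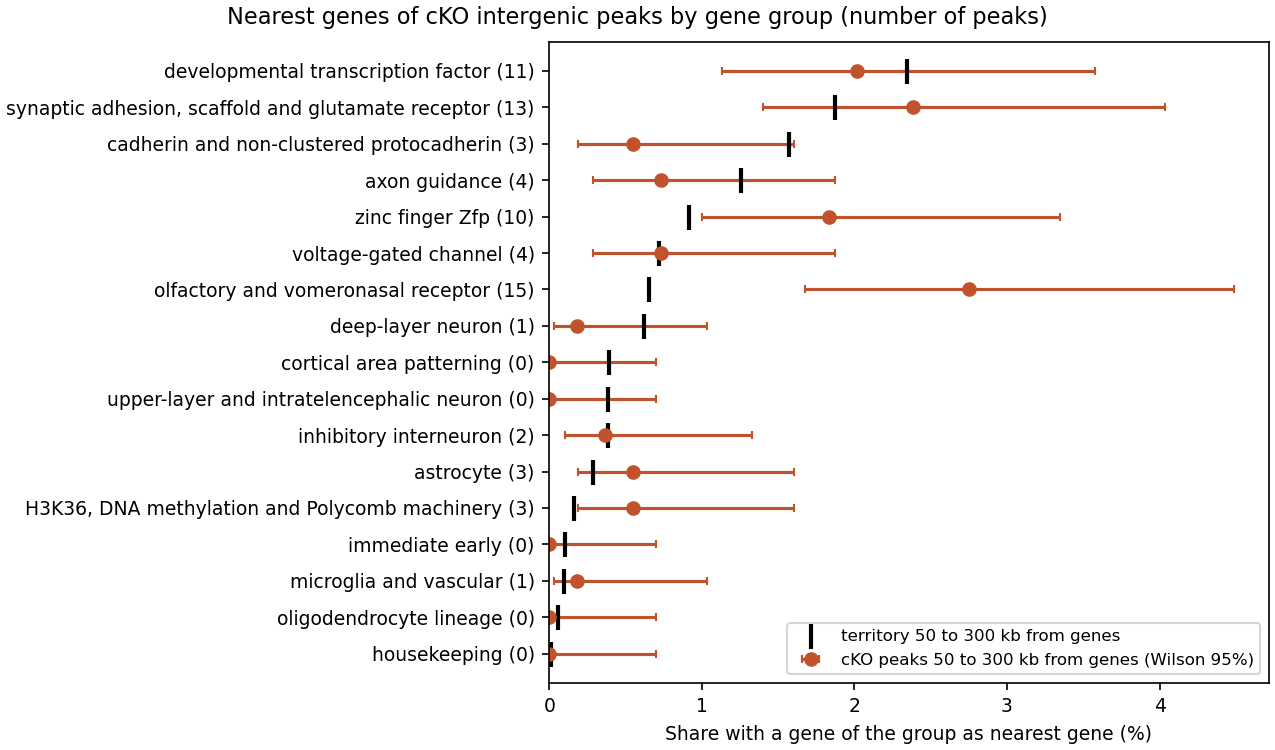
Share of the 545 cKO peaks whose nearest protein-coding gene belongs to each of 17 gene groups (circles with Wilson 95% intervals, x axis in percent) and the share of class territory nearest to those genes (vertical marks); numbers of peaks stand in brackets. The interval of the receptor genes of the nose (1.67 to 4.49) lies above their territory of 0.655%, as do those of the Zfp and the H3K36, DNA methylation and Polycomb groups by a narrow margin.

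The limits of the class were set by distance alone. At 50 kb, cKO peaks just inside lay 50.5 kb from Fam110c (fold 2.75) and 50.9 kb from Btg1b (2.88), and those just outside 49.9 kb from Spin4 (2.49) and 49.4 kb from Piwil1 (2.79). At 300 kb, the cKO peaks just inside lay 299 kb from Alkbh8 (fold 1.26) and 298 kb from Epha5 (3.09), and those just outside 300.4 and 301 kb from Alkbh8 (1.17 and 1.49). The group of peaks before Alkbh8 was thus split by the limit, and its interval held 28 cKO peaks in all, of which 4 were of the class. In the control list, Foxp4 (52.8 kb, fold 3.42) and Gm40469 (53.9 kb, 2.45) were just inside 50 kb and Smgc (48.2 kb, 2.37) and Speer4d (39.7 kb, 2.16) just outside. At 300 kb the control peaks near Alkbh8 (297 kb, fold 1.17) and Adcyap1 (292 kb, 3.38) were just inside, and another pair near Alkbh8 (314 and 317 kb, 1.17 and 1.22) just outside.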

How the data were processed

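H3K36me2 and input chromatin of somatosensory cortex were sequenced in 12 libraries of 4 groups. Cutadapt, Bowtie2 2.4.4, MACS2 and the build mm10 were named without roles, per the submitters' processing notes, with no peak-calling command. Each genotype had 1 deposited list, and the control list named its peaks WT. Per peak, the authors deposited a fold enrichment, which is a ratio to the caller's background. They also deposited the caller's p-value and q-value as −log10 p and −log10 q, with the authors' lowest −log10 p values of 3.08 (controls) and 3.02 (cKO). The score deposited by the authors was not used.

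Positions were made 1-based. The RefSeq table of GRCm38.p6 gave 49943 genes on the chromosomes used. Of these, 340 (108 protein-coding) placed before 3 Mb on chromosomes other than Y, where these chromosomes have no assembled sequence, were left out, leaving 49603 (21779 protein-coding). Strand came from the promoter table for 17492 protein-coding genes. Territory ran from the first to the last annotated gene or peak base. Shares of territory by side, noncoding gene, chromosome end and interval length were read every 1000 bp. Those by gene group were counted base by base. Shares carry Wilson, densities exact Poisson and medians order-statistic intervals, all 95%. With 1 list per genotype no test was run.

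Named by rule in each list were the 10 peaks of highest fold, the 10 of highest −log10 q and the 5 widest. The rule also took up to 15 shared peaks, the 5 intervals with the most peaks, the 2 peaks on each side of each limit, and up to 4 nearest genes per gene group by fold. Ties in the number of peaks per interval were given, except 1 item that is not reported here. The peaks and gene groups were chosen with earlier results of these data known. Alternatives were a −log10 q limit of 2, joined or ungrouped peaks, autosomes, other distances and other overlap rules. Class assignment and overlap were tested on simulated positions. Python 3.11.15 with numpy 2.4.6, pandas 2.3.3, scipy 1.17.1 and matplotlib 3.10.9 was used.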

Additional observations from a re-analysis of the deposited data

How the results depend on the processing

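No paired analysis was possible because no value per library was given, only 1 list for each genotype. Of 43 values under an alternative in each list, 29 control and 30 cKO values stayed close to the main one, that is within 1.5 times for numbers of peaks and inside the main 95% interval for shares, densities and medians. With a −log10 q of at least 2 in both lists, 3 control and 39 cKO peaks were left, at 0.0058 and 0.0754 per Mb, with median folds of 1.20 and 2.59. The 39 were 10.4% of the 374 cKO peaks that met this limit. Between the lists so cut, 100% of the 3 control and 7.69% of the 39 cKO peaks were shared. Without grouped peaks, 19 control peaks were left, densities were 0.0368 and 0.959 per Mb, the control share with q under 0.05 was 0%, and 10.5% and 0.403% were shared. These lower shares were linked to the definition of grouping, which counts the overlapping peak of the other list. The shared part of the whole lists was not computed with this −log10 q limit or without grouped peaks. Whether it moved in the same way is therefore unknown. Over 100 kb from protein-coding genes there were 18 control (7.79%) and 327 cKO peaks (9.37%). Over 50 kb from genes of any biotype there were 14 (6.06%) and 357 (10.2%), at 0.0330 and 0.842 per Mb, and 0% of control peaks had q under 0.05. On autosomes the cKO share was 14.4%. Control values rest on 29 peaks, and depth, which was unknown, limits every count.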
